A study of Homo sapiens with 30 samples.

Results

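The 10 immediate early and RAS-ERK feedback genes described here were followed across HepG2 cells, a human liver cancer line. The cells were treated with ethanol extracts of 4 tonifying herbal formulas. Levels of RNA are given, and ERK activity was not measured. The genes were chosen by name: the immediate early transcription factors EGR1, FOS, JUN and FOSL2, the immediate early response genes IER2 and IER3, the ERK phosphatases DUSP4, DUSP5 and DUSP6, and the pathway inhibitor SPRY4. The choice was made with earlier results of these data known. Member counts and medians set beside those of all genes or of other lists are therefore a description, not a test. All 10 had a row among the 60675 gene rows measured by RNA-seq, and all 10 passed the filter on low counts that left 16083 genes for testing. The cells were exposed for 24 h to Palmul-tang or Sibjeondaebo-tang (3 libraries at each dose), Samul-tang (2 at each dose), Sagunja-tang (1 at each dose) or vehicle (3 libraries, 0.1% DMSO in the sample labels, while the series text names another concentration). The doses were 20, 100 and 500 µg/mL, called low, medium and high here, which gives 13 groups and 30 libraries. As background, Palmul-tang is a union of Samul-tang with Sagunja-tang, and more herbs are added to Palmul-tang to make Sibjeondaebo-tang. Nothing in the labels says that the replicates were separate cultures, so the p-values measure the spread between libraries, which may be technical.

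As background, growth factor receptors activate RAS, which switches on the kinases RAF, MEK and ERK in turn. Active ERK phosphorylates transcription factors that turn on immediate early genes without new protein synthesis, and after an acute stimulus their transcripts usually rise and fall again within hours. ERK also turns on its own brakes: DUSP6, DUSP4 and DUSP5 encode phosphatases that remove phosphate from ERK, and SPRY4 encodes a Sprouty protein that acts upstream of ERK. HepG2 cells carry an activating NRAS mutation, so the pathway is not silent in the untreated line.

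RefSeq windows of the 250 bases before 1 RefSeq start of the gene (GRCh38.p14) were at hand for 7 of the 10 genes. For JUN, FOSL2, DUSP6 and SPRY4 the window lies inside the span of the gene in GENCODE 29, not upstream of it. The part of each window outside the annotated exons is shown for the 3 genes with a match, from 5′ to 3′ on the strand of the gene, with the match in capitals. EGR1 carries a pair of CArG boxes (the site of serum response factor) and 1 match to the EGR motif, SPRY4 carries 1 EGR match on the opposite strand, and IER2 carries 1 ETS match on the opposite strand.
EGR1, chr5:138465229-138465478, plus strand: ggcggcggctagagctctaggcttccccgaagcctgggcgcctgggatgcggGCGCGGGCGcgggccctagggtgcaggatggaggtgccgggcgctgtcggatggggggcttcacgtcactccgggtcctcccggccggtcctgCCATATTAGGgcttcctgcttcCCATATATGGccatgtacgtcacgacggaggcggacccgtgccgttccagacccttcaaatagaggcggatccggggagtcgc
SPRY4, chr5:142324418-142324497, minus strand: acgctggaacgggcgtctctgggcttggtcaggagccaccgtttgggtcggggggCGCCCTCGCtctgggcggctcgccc
IER2, chr19:13150384-13150410, plus strand: cTTCCGGtgcacatgcccccgcccctt
The CArG boxes of EGR1 lie 105 to 96 and 83 to 74 bases before the RefSeq start. Both strands were searched for the CArG box, CCGGAA (ETS), TGACGTCA (CRE), TGANTCA (AP-1) and GCGNGGGCG (EGR), and the matches shown do not overlap each other. Of 35116 promoter windows in the RefSeq table, 1.159% held a CArG box, 14.535% ETS, 1.646% CRE, 6.573% AP-1 and 8.415% EGR. Among the 7 members the counts were 1, 1, 0, 0 and 2, over whole windows as in the table. Such windows can hold transcribed sequence of another annotated start: those of JUN and DUSP6 lie wholly inside annotated exons, with 0 bases outside, and 27 bases of the IER2 window and 80 of the SPRY4 window lie outside. A match is a stretch of letters and was not tested as a site.

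Library totals ran from 21570416 to 37707232 expected counts. Levels are given as CPM, the count of a gene scaled to library size over all 30 libraries. All 10 hepatocyte markers were detected in every library, with a sum of 57570 to 69210 CPM with extract and of 60250 to 62090 CPM without. Of the 27 extract libraries, 21 had a higher sum than any vehicle library and 3 had a lower sum than any. The 8 fibroblast markers summed to 3.969 to 7.625 CPM, with 3 to 6 of them at 0, in every library but Sibjeondaebo-tang low replicate 3, where the sum was 33.84 CPM with 0 at 0. Called member and list results that use that library are also given without it. Most uncalled results, the shares of all genes, and the orders of libraries and group means are given with it only. The 5 endothelial markers summed to 1.891 to 3.165 CPM, with 1 to 3 at 0. The 5 immune markers, with 1 or 2 at 0, summed to 1224 to 1341 CPM in vehicle. In 26 of the 27 extract libraries they summed to more than in any vehicle library, at 1358 to 1827 CPM, and in Sagunja-tang low to less, at 1080 CPM. The part of each gene in this sum is not given, so the sum is no measure of immune cells in this line. ALB, the main hepatocyte secretory product, stood at 11160 to 12010 CPM in vehicle and lower at the high doses, at 8392 to 8887 CPM under Palmul-tang, 8926 to 9201 CPM under Sibjeondaebo-tang and 9325 to 9485 CPM under Samul-tang. The titles of all 30 libraries name the same batch, E. The sample codes in the labels carry 1 prefix for the vehicle libraries, another for Samul-tang and Sagunja-tang, and another for Palmul-tang and Sibjeondaebo-tang. What these prefixes mark is not stated, and libraries with the same prefix are called a labelled set here. In every comparison with vehicle, treatment and labelled set cannot be told apart. The comparisons of doses within a formula, and of Sibjeondaebo-tang with Palmul-tang, stay inside 1 set. The nuclear RNA MALAT1 lay between 235.3 and 336.5 CPM with extract, below the vehicle range of 390.7 to 426.1 CPM. The mitochondrial share was 11.2 to 19.7% of counts with extract and 12.4 to 14.5% without. It was above every vehicle library in 23 of the 27 extract libraries and below every one in 1. The part of these markers, of ALB, of MALAT1 and of the mitochondrial share in the results against vehicle was not tested. In bulk RNA, fewer expressing cells and less RNA per cell cannot be told apart.

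Per kilobase of annotated exon, the vehicle level was highest for IER3 (43.66 CPM per kb) and DUSP6 (19.4 CPM per kb). IER2, EGR1, SPRY4 and JUN followed at 7.549, 6.807, 6.538 and 5.78 CPM per kb, and FOSL2 at 2.277. DUSP5 (0.7109 CPM per kb), FOS (0.3166) and DUSP4 (0.06066) were the lowest. FOS had 18 to 53 expected counts in a library and DUSP4 had 7 to 21, against 2463 to 4962 for DUSP6, so counting alone limits the precision of FOS, DUSP4 and DUSP5.

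**Figure D1:**
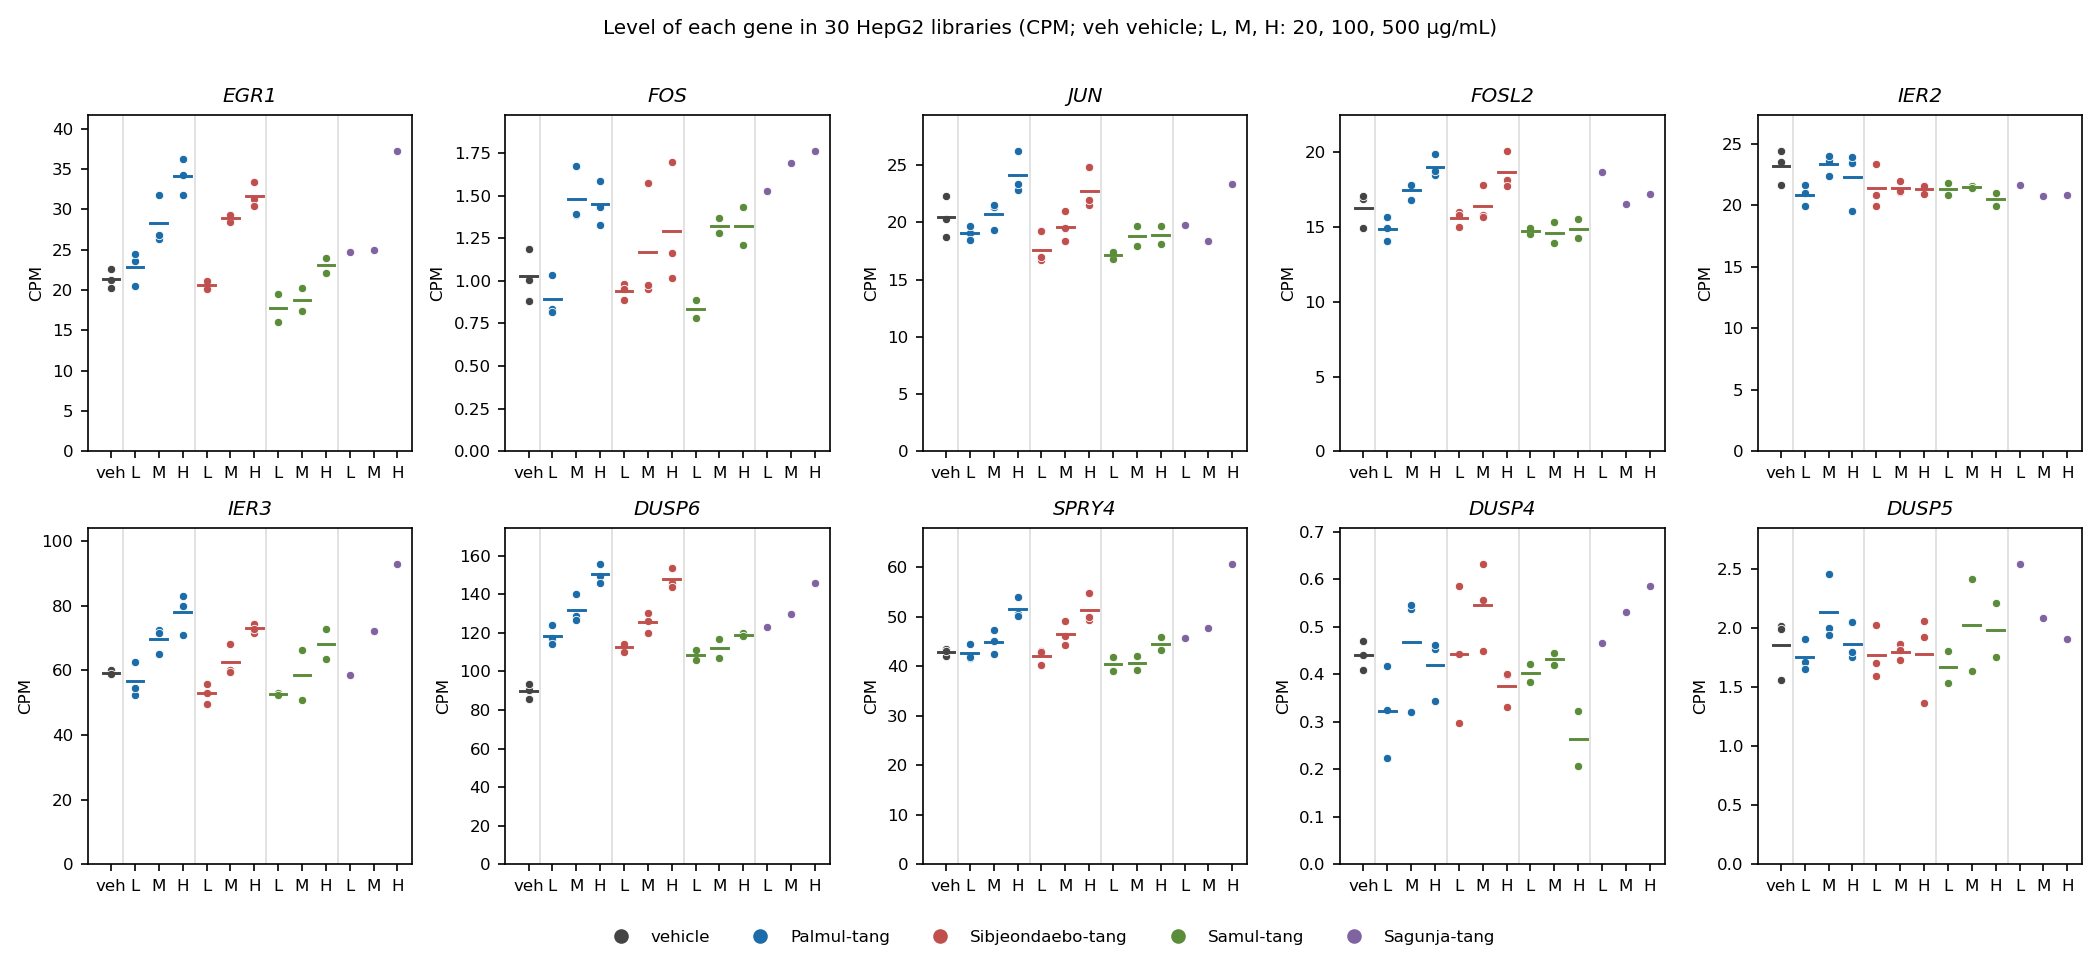
Level of each of the 10 genes (y axis, CPM, starting at 0) in vehicle and in each formula at 20 (L), 100 (M) and 500 (H) µg/mL. Each point is a library and each bar is a group mean; DUSP6 is above vehicle in all 27 extract libraries, and EGR1, IER3 and SPRY4 are highest at the high dose of each formula.

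Against vehicle, DUSP6 was the member that rose at every dose tested, and EGR1 rose at the medium and high doses of Palmul-tang and Sibjeondaebo-tang. In all, 6 members rose at the high dose of Palmul-tang (EGR1, JUN, FOSL2, IER3, DUSP6 and SPRY4) and 5 at the high dose of Sibjeondaebo-tang (the same genes without JUN), and none fell at either. Each test was an edgeR quasi-likelihood test, its p adjusted over every tested gene (Benjamini-Hochberg), and a gene is said to have risen or fallen where its adjusted p was under 0.05. Of all tested genes, 31.8% were called in Palmul-tang high (16.3% higher) and 36% in Sibjeondaebo-tang high (19.3% higher). At the medium dose, 3 members rose under Palmul-tang (EGR1, IER3 and DUSP6, against 22.3% of all genes called, 11.6% higher) and 2 under Sibjeondaebo-tang (EGR1 and DUSP6, against 30.2%, 15.3% higher). At the low dose of Palmul-tang only DUSP6 of the 10 rose, against 23.2% of all genes called. At the low dose of Sibjeondaebo-tang DUSP6 rose and JUN fell, against 23%. Under Samul-tang DUSP6 rose at all 3 doses and no other member rose, and JUN fell at the low dose. Of all tested genes, 18.5% were called at the high dose of Samul-tang (9.82% higher, 8.69% lower), 19.8% at the medium dose (10.3% higher, 9.57% lower) and 11.3% at the low dose (6.47% higher, 4.79% lower). These all-gene counts rest on single libraries: the high-dose count fell from 2978 to 1300 genes without Samul-tang high replicate 2 and to 1799 without replicate 3. The medium-dose count fell from 3188 to 747 without replicate 2, and was as high as 4675 with another library left out. The low-dose count fell from 1811 to 604 without replicate 3, 693 without replicate 2 and 1047 without vehicle replicate 2. With the compared groups alone the members called were 4 at the low dose and 0 at the medium dose. No reading of the Samul-tang member counts against these shares is made. The median log2 fold change of the 10 members was 0.251 in Palmul-tang high and 0.228 in Sibjeondaebo-tang high, where the median of all genes was -0.009 in each, and it was 0.069 in Samul-tang high, beside -0.004 for all genes.

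**Figure D2:**
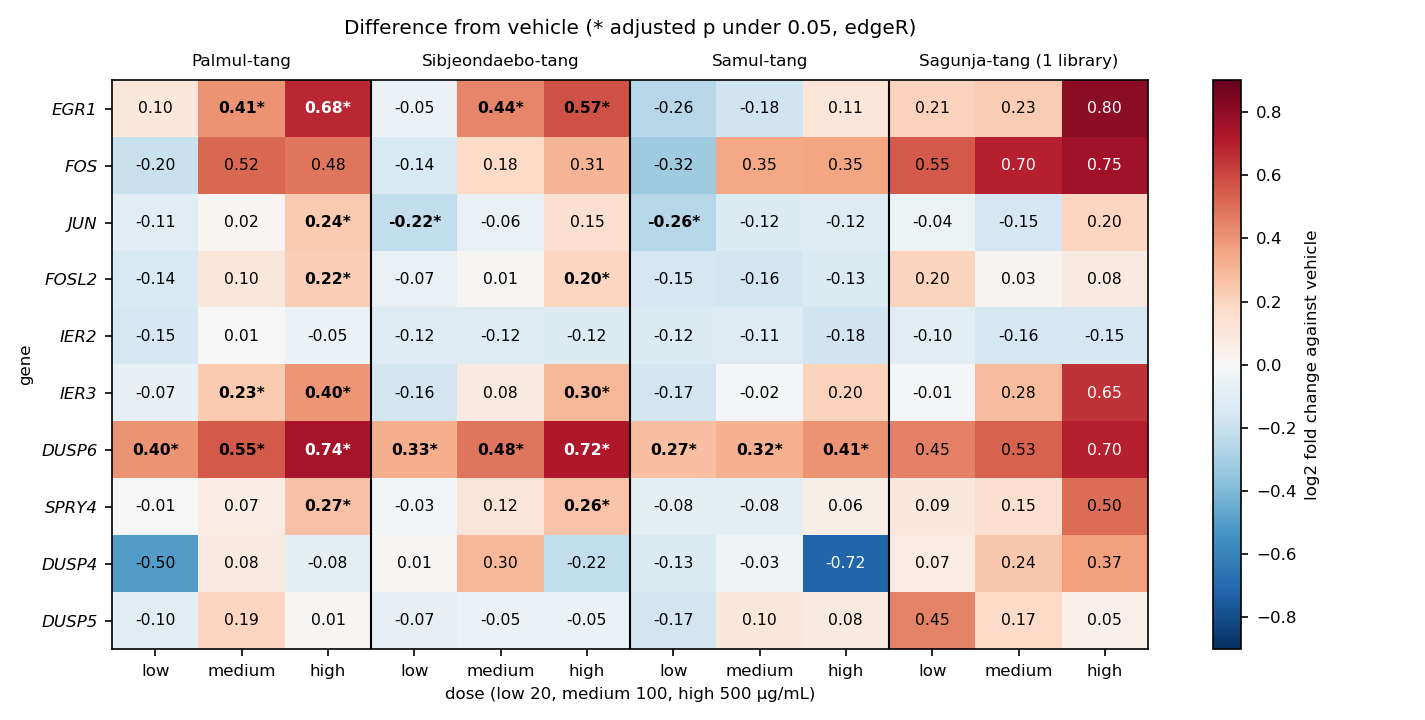
Log2 fold change against vehicle for each gene (rows) at each dose of each formula (columns), with blue below and red above vehicle and an asterisk where the edgeR adjusted p was under 0.05. The DUSP6 row is positive in all columns, and the Sagunja-tang columns are ratios of 1 library to the vehicle mean, with no test.

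Among the transcription factors, EGR1 was called against vehicle at 4 formula doses, JUN at 3, FOSL2 at 2 and FOS at 0. EGR1 encodes a zinc finger factor and lies on chromosome 5 (GRCh38, 138465490 to 138469315, plus strand). Its vehicle libraries stood at 21.25, 20.22 and 22.62 CPM (mean 21.36 ± 1.2, SD, n = 3). Under Palmul-tang they stood at 31.81, 36.25 and 34.2 CPM at the high dose, 26.31, 26.78 and 31.73 CPM at the medium dose, and 23.62, 20.48 and 24.46 CPM at the low dose. Under Sibjeondaebo-tang they stood at 31.3, 30.4 and 33.36 CPM (high), 28.41, 29.28 and 29.24 CPM (medium) and 20.56, 21.08 and 20.1 CPM (low). Every medium and high library of these formulas was above every vehicle library, and the low libraries overlapped vehicle. The log2 fold change against vehicle was 0.68 ± 0.0786 (SE, adjusted p = 9.54e-08) in Palmul-tang high and 0.57 ± 0.079 (adjusted p = 1.36e-06) in Sibjeondaebo-tang high. At the medium dose it was 0.41 ± 0.0795 (adjusted p = 0.000406) and 0.44 ± 0.079 (adjusted p = 9.84e-05). Samul-tang gave 22.12 and 23.98 CPM at the high dose, 20.2 and 17.34 CPM at the medium dose and 16 and 19.55 CPM at the low dose, from below to just above the vehicle libraries, and the high dose did not pass the test (log2 fold change 0.11, adjusted p = 0.411). At the low dose both libraries were below vehicle, and the log2 fold change of -0.26 ± 0.0924 did not pass the test either (adjusted p = 0.0705). In 4 of 10 alternatives the low dose was called lower: with no low-count filter (adjusted p = 0.0372), a replicate block (0.0418), the compared groups alone (0.0393), and without Samul-tang low replicate 3 (-0.41, adjusted p = 0.0402).

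JUN and FOSL2, which encode partners of the AP-1 dimer, had smaller fold changes at the high doses. JUN lies on chromosome 1 (58780788 to 58784327, minus strand) and FOSL2 on chromosome 2 (28392448 to 28417312, plus strand). JUN stood at 20.34, 22.29 and 18.74 CPM in vehicle and at 22.81, 26.26 and 23.4 CPM in Palmul-tang high, where it rose by 0.24 ± 0.075 on the log2 scale (adjusted p = 0.016). That call was lost without Palmul-tang high replicate 2 (0.17, adjusted p = 0.136) and without vehicle replicate 3 (0.18, adjusted p = 0.105). In Sibjeondaebo-tang high JUN stood at 24.88, 21.49 and 21.94 CPM (log2 fold change 0.15, adjusted p = 0.13). At the low doses of Sibjeondaebo-tang and Samul-tang all but 1 library had less JUN than any vehicle library: 19.25, 16.7 and 16.94 CPM under Sibjeondaebo-tang (log2 fold change -0.22 ± 0.0757, adjusted p = 0.0345) and 16.81 and 17.44 CPM under Samul-tang (-0.26 ± 0.0864, adjusted p = 0.0477). Both low-dose calls are fragile, since the first was lost in 5 of 11 alternatives, among them without Sibjeondaebo-tang low replicate 3 (-0.19, adjusted p = 0.125), and the second in 7 of 10. In Palmul-tang low JUN stood at 19.06, 19.67 and 18.49 CPM, which overlapped vehicle and was not called, and in Sagunja-tang low at 19.81 CPM, inside the vehicle range.

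FOSL2 stood at 14.94, 16.9 and 17.07 CPM in vehicle, at 19.86, 18.5 and 18.78 CPM in Palmul-tang high and at 18.17, 20.1 and 17.75 CPM in Sibjeondaebo-tang high. All 6 high-dose libraries were above all vehicle libraries. The log2 fold changes were 0.22 ± 0.0684 (adjusted p = 0.012) and 0.20 ± 0.0686 (adjusted p = 0.0249). The Palmul-tang call was lost without vehicle replicate 1 (0.17, adjusted p = 0.0816) or Palmul-tang high replicate 1 (0.19, adjusted p = 0.0639). The Sibjeondaebo-tang call was lost in 5 of 11 alternatives, where leaving out vehicle replicate 1 gave 0.12 (adjusted p = 0.217) and leaving out Sibjeondaebo-tang high replicate 2 gave 0.14 (adjusted p = 0.169). In Samul-tang the group means of FOSL2 were 14.91, 14.61 and 14.72 CPM from the high to the low dose, and none passed the test.

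FOS, the prototype immediate early gene, was scarce at this time point. It lies on chromosome 14 (75278774 to 75282230, plus strand). FOS stood at 0.881, 1.189 and 1.006 CPM in vehicle, at 1.328, 1.585 and 1.431 CPM in Palmul-tang high, and at 1.697, 1.163 and 1.019 CPM in Sibjeondaebo-tang high. The Palmul-tang libraries were all above vehicle and the Sibjeondaebo-tang libraries overlapped it, and neither passed the test (log2 fold change 0.48 ± 0.209, adjusted p = 0.0779, and 0.31 ± 0.213, adjusted p = 0.277).

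Of the immediate early response genes, IER3 rose at the high doses of Palmul-tang and Sibjeondaebo-tang and IER2 passed no test. IER3, whose product acts on cell survival and on ERK signalling, lies on chromosome 6 (30743199 to 30744554, minus strand) and stood at 58.92, 59.97 and 58.73 CPM in vehicle. It stood at 79.88, 83.08 and 70.94 CPM in Palmul-tang high and at 74.4, 71.63 and 72.84 CPM in Sibjeondaebo-tang high, all above vehicle. The log2 fold changes were 0.40 ± 0.0814 (adjusted p = 0.000535) and 0.30 ± 0.0816 (adjusted p = 0.00549). In Palmul-tang medium IER3 stood at 72.57, 65.12 and 71.38 CPM (0.23 ± 0.0817, adjusted p = 0.0407), a call lost in 5 of 11 alternatives, among them without each vehicle library in turn (adjusted p = 0.0961, 0.0878 and 0.095) and without Palmul-tang medium replicate 1 (0.123) or 3 (0.128). In Samul-tang high the libraries stood at 72.76 and 63.62 CPM, both above vehicle (log2 fold change 0.20 ± 0.09, adjusted p = 0.118), and 3 of 10 alternatives called it: a replicate block (adjusted p = 0.0294), no low-count filter (0.00769) and the compared groups alone (0.0212). IER2, a nuclear protein gene on chromosome 19 (13150415 to 13154908, plus strand), stood at 21.66, 24.42 and 23.48 CPM in vehicle and at 19.52 to 24.02 CPM (median 21.37) in the extract libraries. None of the 27 extract libraries was above all vehicle libraries, and 19 of 27 were below all of them, with no share of all tested genes computed for these counts.

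DUSP6, the cytoplasmic phosphatase specific for ERK, was called higher at each of the 9 formula doses tested against vehicle. It lies on chromosome 12 (89347232 to 89353271, minus strand) and stood at 90.41, 85.94 and 93.27 CPM in vehicle (mean 89.87 ± 3.7, n = 3). Every one of the 27 extract libraries was higher, from 105.9 to 155.7 CPM with a median of 124.2. The share of all tested genes that separate from vehicle in this way was not computed, so the separation is not called particular to DUSP6. MALAT1 also separated, below every vehicle library in 27 of 27. All 9 tests use the same vehicle libraries, which form their own labelled set. Under Palmul-tang DUSP6 stood at 149.7, 155.7 and 145.7 CPM (high), 128.8, 126.7 and 140 CPM (medium) and 117.4, 114.2 and 124.2 CPM (low). Under Sibjeondaebo-tang it stood at 145.6, 143.9 and 153.8 CPM (high), 126, 120 and 130.4 CPM (medium) and 113.9, 110.3 and 114.4 CPM (low). Under Samul-tang it stood at 119.7 and 118.2 CPM (high), 117 and 107 CPM (medium) and 105.9 and 111 CPM (low). Ordered by level, vehicle came last with a gap to the next group, the high doses of Palmul-tang and Sibjeondaebo-tang came first and overlapped each other, and most neighbours between them overlapped. The log2 fold change against vehicle at the high, medium and low dose was 0.74, 0.55 and 0.40 for Palmul-tang (SE 0.0495 to 0.0496, adjusted p = 1e-12, 1.49e-09 and 1.55e-06). It was 0.72, 0.48 and 0.33 for Sibjeondaebo-tang (adjusted p = 2.03e-12, 3.08e-08 and 2.19e-05). It was 0.41, 0.32 and 0.27 for Samul-tang (adjusted p = 4.11e-06, 0.000134 and 0.0015). The 6 calls for Palmul-tang and Sibjeondaebo-tang held in every alternative. The Samul-tang medium call was lost when only the compared groups entered the fit (0.32, adjusted p = 0.0572), and the Samul-tang low call was lost without Samul-tang low replicate 3 (0.24, adjusted p = 0.0535). A gene on the other strand, AC024909.2, overlaps DUSP6 over 2257 bases and had at most 59 expected counts in a library.

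The other feedback genes divided by abundance. SPRY4 lies on chromosome 5 (142310427 to 142326455, minus strand) and stood at 42.18, 43.51 and 43.08 CPM in vehicle, at 50.67, 54.1 and 50.12 CPM in Palmul-tang high and at 54.81, 49.43 and 50.06 CPM in Sibjeondaebo-tang high. All 6 high-dose libraries were above vehicle, and the log2 fold changes were 0.27 ± 0.0549 (adjusted p = 0.000379) and 0.26 ± 0.055 (adjusted p = 0.000429). The group means of SPRY4 at the low dose were 42.7 CPM under Palmul-tang and 42.13 CPM under Sibjeondaebo-tang, beside 42.92 CPM in vehicle, and neither passed the test. DUSP4 and DUSP5, which encode nuclear phosphatases, passed no test. DUSP4 stood at 0.4405, 0.4702 and 0.4099 CPM in vehicle and 0.2065 to 0.6327 CPM in extract libraries, and DUSP5 at 2.019, 1.991 and 1.565 CPM in vehicle and 1.366 to 2.545 CPM in extract libraries. At these counts a difference of the size seen for SPRY4 was not detectable for DUSP4.

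Doses of the same formula were compared within 1 labelled set. From the low to the high dose of Palmul-tang, 7 of the 10 members rose (EGR1, FOS, JUN, FOSL2, IER3, DUSP6 and SPRY4), where 6.78% of all tested genes were called (3.75% higher, 3.03% lower). In all, 6 rose from the low to the high dose of Sibjeondaebo-tang (the same genes without FOS), where 19.8% of all tested genes were called (10.4% higher, 9.44% lower). None fell in either. For all 7 of these genes the 3 high libraries were above the 3 low libraries in both formulas, which held for 12.4% of all tested genes in Palmul-tang and 23.3% in Sibjeondaebo-tang. The members' median log2 fold change was 0.353 for Palmul-tang and 0.326 for Sibjeondaebo-tang, beside 0.002 and 0.02 for all genes. Without Sibjeondaebo-tang low replicate 3, the library with the higher fibroblast markers, 6 members rose, EGR1 by 0.60 (adjusted p = 1.47e-05), IER3 by 0.42 (0.00217), DUSP6 by 0.40 (6.62e-06), JUN by 0.34 (0.00642), FOSL2 by 0.27 (0.0158) and SPRY4 by 0.26 (0.00419). Against vehicle, DUSP6 at the low dose was then 0.32 higher (adjusted p = 0.000304).

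EGR1 rose by 0.58 ± 0.0782 on the log2 scale (adjusted p = 4.43e-06) from low to high Palmul-tang and by 0.62 ± 0.0784 (adjusted p = 5.51e-07) from low to high Sibjeondaebo-tang. IER3 rose by 0.47 ± 0.0817 (adjusted p = 0.000401) and 0.46 ± 0.0816 (adjusted p = 0.000185). DUSP6 rose by 0.34 ± 0.049 (adjusted p = 1.07e-05) and 0.39 ± 0.0489 (adjusted p = 5.24e-07). JUN rose by 0.34 ± 0.0756 (adjusted p = 0.00355) and 0.37 ± 0.0757 (adjusted p = 0.000676), FOSL2 by 0.36 ± 0.0692 (adjusted p = 0.000718) and 0.26 ± 0.0681 (adjusted p = 0.00585), and SPRY4 by 0.27 ± 0.055 (adjusted p = 0.00129) and 0.29 ± 0.0547 (adjusted p = 0.000279). FOS stood at 0.8369, 0.8148 and 1.035 CPM in Palmul-tang low, below its high libraries, and rose by 0.68 ± 0.213 (adjusted p = 0.0485). Every one of 11 alternatives lost that FOS call (adjusted p from 0.051 to 0.192), while the log2 fold change stayed between 0.60 and 0.81. FOS did not pass the test in Sibjeondaebo-tang (0.44 ± 0.212, adjusted p = 0.147). The JUN call in Palmul-tang was lost without Palmul-tang high replicate 2 (0.27, adjusted p = 0.0577), and the FOSL2 call in Sibjeondaebo-tang without Sibjeondaebo-tang high replicate 2 (0.20, adjusted p = 0.0626). ALB, the hepatocyte marker, stood at 8392 to 8887 CPM in Palmul-tang high against 10480 to 11120 CPM in Palmul-tang low, and at 8926 to 9201 CPM against 10820 to 11540 CPM under Sibjeondaebo-tang. The summed immune markers went the other way, at 1665 to 1774 CPM in Palmul-tang high against 1358 to 1501 CPM in low, and at 1622 to 1827 CPM against 1405 to 1507 CPM under Sibjeondaebo-tang. No immune cell content is read from this sum. The summed hepatocyte markers were lower at the high dose, at 58650 to 61970 CPM against 66210 to 67540 CPM under Palmul-tang. Under Sibjeondaebo-tang they stood at 63480 to 65330 CPM against 66270 to 67860 CPM. The mitochondrial share was 17.21 to 19.36% in Sibjeondaebo-tang high against 15.71 to 17.04% in low. Under Palmul-tang its ranges overlapped (14.88 to 16.94% and 14.82 to 18.39%). The part of these measures in the members' changes was not tested.

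**Figure D3:**
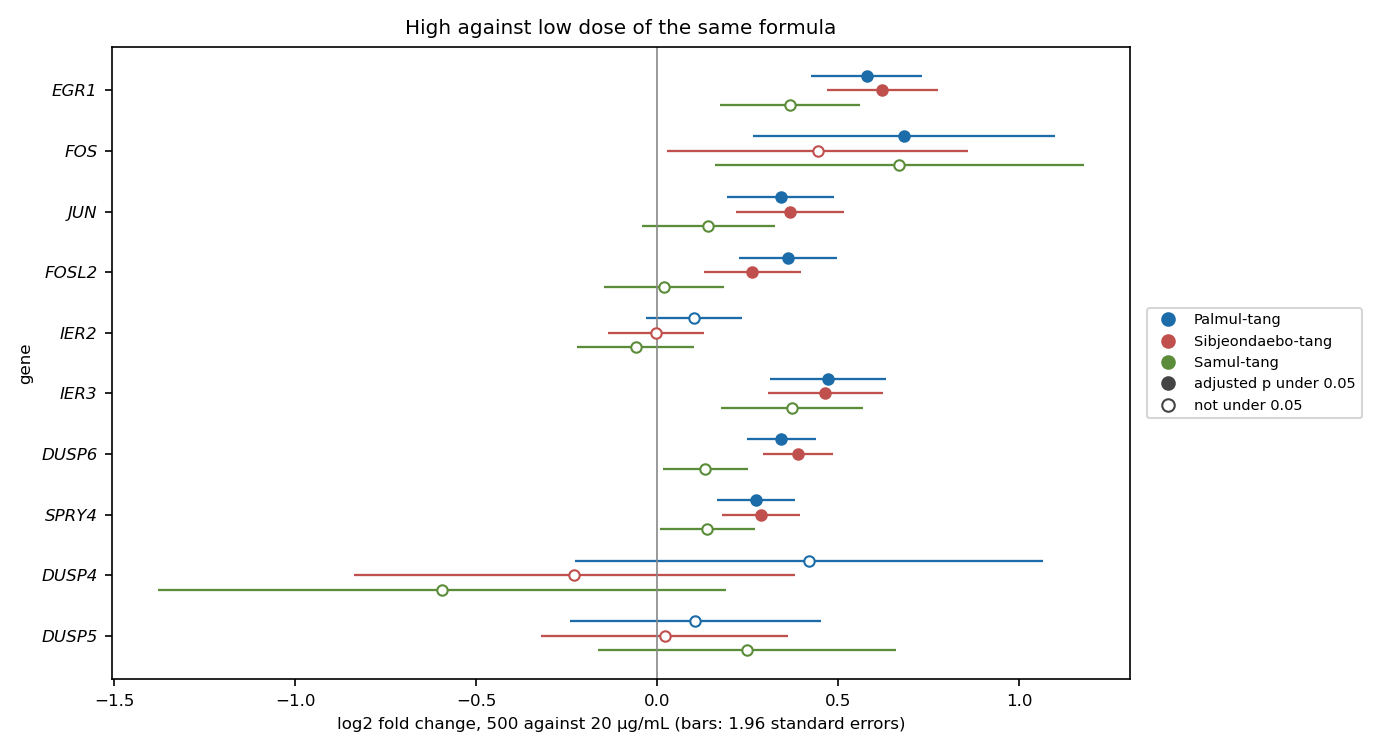
Log2 fold change of each gene from 20 to 500 µg/mL of the same formula (x axis), with bars that span the 95% interval and filled points where the edgeR adjusted p was under 0.05. EGR1, JUN, FOSL2, IER3, DUSP6 and SPRY4 are filled for Palmul-tang and Sibjeondaebo-tang, no Samul-tang point is filled, and the widest bars belong to FOS and DUSP4.

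In Samul-tang, the dose comparison called none of the 10 members, and 1.42% of all tested genes (0.709% higher, 0.715% lower). With 2 libraries a dose, 5 members had an unadjusted p under 0.05, all higher at the high dose, and DESeq2 called 2 members and 251 genes in all. No share of all tested genes was computed at an unadjusted p under 0.05, so the count of 5 has no background beside it. EGR1 differed by 0.37 ± 0.0987 on the log2 scale (adjusted p = 0.0544) and IER3 by 0.37 ± 0.0998 (adjusted p = 0.0642), with the high libraries of each above both low libraries, at 23.05 against 17.78 CPM and 68.19 against 52.74 CPM on average. DESeq2 gave adjusted p = 0.0342 for EGR1 and 0.0156 for IER3. DUSP6 differed by 0.13 ± 0.06 (adjusted p = 0.432). The dose effect on DUSP6 in Sibjeondaebo-tang was larger than in Samul-tang by 0.26 ± 0.0774 (95% interval 0.104 to 0.408), which did not pass the test over all genes (adjusted p = 0.0966, and 0.125 at 0.27 without Sibjeondaebo-tang low replicate 3). The difference of dose effects between formulas called no member in any of 3 pairs. Of all tested genes, 2% were called for Sibjeondaebo-tang against Palmul-tang (0.0497% higher, 1.95% lower), 0.0124% for Samul-tang against Palmul-tang and 1.68% for Sibjeondaebo-tang against Samul-tang (0.0995% higher, 1.58% lower). At an unadjusted p under 0.05 the members counted 0, 2 and 2, again with no share of all tested genes computed, and DESeq2 called 0 members in each. For Samul-tang minus Palmul-tang the 2 were FOSL2 (-0.34, 95% interval -0.558 to -0.129) and DUSP6 (-0.21, 95% interval -0.362 to -0.058), and neither passed after adjustment.

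Sibjeondaebo-tang, which holds the herbs of Palmul-tang, was set against it at matched doses. No member was called at any dose, at an unadjusted p under 0.05 or by DESeq2, where 6.47% of all tested genes were called at the high dose (1.75% higher, 4.72% lower), 0.0311% at the medium dose and 0% at the low dose. At the high dose DUSP6 differed by -0.03 ± 0.0487 on the log2 scale (Sibjeondaebo-tang minus Palmul-tang, 95% interval -0.121 to 0.07, adjusted p = 0.833). EGR1 differed by -0.10 ± 0.0766 (95% interval -0.254 to 0.046, adjusted p = 0.485). These intervals bound the difference, and do not show that the formulas act alike.

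Sagunja-tang had 1 library a dose and no replicate check, so its values are a description of these libraries. At the high dose it had the highest level of 5 members among the 13 groups. No share of all tested genes was computed for this count, and a single library varies more than a mean over several. EGR1 stood at 37.25 CPM at the high dose, 25 at the medium and 24.68 at the low, all above the vehicle libraries. DUSP6 stood at 145.7, 130 and 122.8 CPM from high to low, IER3 at 92.86, 72.07 and 58.65 CPM, and SPRY4 at 60.71, 47.74 and 45.76 CPM. In all, 6 members were more than 25% above the vehicle mean at the high dose (EGR1, FOS, IER3, DUSP4, DUSP6 and SPRY4), where 11.6% of all tested genes were. At the medium dose 2 were (FOS and DUSP6, 11% of genes) and 3 at the low dose (FOS, DUSP5 and DUSP6, 9.89%), and none was below vehicle by as large a factor. FOS stood at 1.762, 1.693 and 1.527 CPM, above all vehicle libraries, on 18 to 53 expected counts a library over the series. The lowest group was Samul-tang low for 6 of the 10 members, again with no share of all tested genes and with groups of unequal size.

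Group means rose in order from low through medium to high dose for 6 of 10 members in Palmul-tang, 7 in Sibjeondaebo-tang, 5 in Samul-tang and 6 in Sagunja-tang. Of all tested genes, 23.9% did so in Palmul-tang, 28% in Sibjeondaebo-tang, 15.3% in Samul-tang and 21.3% in Sagunja-tang. Over the 13 group means of log2 CPM, EGR1 and SPRY4 went together (Pearson r = 0.925), as did IER3 and SPRY4 (0.925) and EGR1 and DUSP6 (0.836), and IER2 did not follow DUSP6 (-0.23). Around the group means, over the 27 libraries of groups with more than 1 library, EGR1 and DUSP6 still went together (0.746), while EGR1 with SPRY4 gave 0.359 and IER3 with SPRY4 gave 0.034. These points share libraries, doses and scaling, and the values are a description. Among 10622 genes searched, those most like each member over the 13 means were TRIB1 for EGR1 (0.97), JUNB for JUN (0.967), NES for IER3 (0.975), SLC16A6 for SPRY4 (0.97), and BAG3 (0.977), NEDD9 (0.975) and ETS2 (0.966) for DUSP6. The best match was weaker for FOS (FAM216A, 0.886), DUSP4 (CCN1, 0.882), FOSL2 (ZDHHC5, 0.826), DUSP5 (CBY1, 0.812) and IER2 (GLB1L, 0.797).

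Of 5 other lists of the pathway, 4 had called genes on both sides of 0 between doses, and no ligand fell. Their counts stand beside the shares of all tested genes called between doses, 6.78% in Palmul-tang (3.75% higher, 3.03% lower) and 19.8% in Sibjeondaebo-tang (10.4% higher, 9.44% lower). In Palmul-tang the feedback, cascade and stress kinase lists were near that share, with 2 of 25, 4 of 38 and 1 of 15 called. The stress kinases (3 of 15) were near it in Sibjeondaebo-tang. The feedback list there (5 of 25) was near it only over both directions together, since 5 were higher and 0 lower. Of 35 other immediate early genes 29 were tested. From low to high Palmul-tang 6 rose and 5 fell (median log2 fold change 0.156), and from low to high Sibjeondaebo-tang 9 rose and 2 fell (median 0.146). MYC, a growth-promoting transcription factor, rose by 0.31 and 0.32, and KLF6, a zinc finger factor, by 0.22 and 0.28. TRIB1, a pseudokinase gene, rose by 0.25 in Palmul-tang and by 0.27 in Sibjeondaebo-tang. ID1, an inhibitor of helix-loop-helix factors, fell by 0.44 and 0.63. Without Sibjeondaebo-tang low replicate 3 the Sibjeondaebo-tang counts were 6 up and 2 down, with MYC at 0.34, KLF6 at 0.28, TRIB1 at 0.27 and ID1 at -0.65, all still called, and leaving out 1 library brought the Palmul-tang counts to as few as 3 up and 2 down.

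Of 28 other ERK feedback and output genes 25 were tested. From low to high dose, 1 rose and 1 fell in Palmul-tang, and 5 rose and 0 fell in Sibjeondaebo-tang. ERRFI1, which encodes an inhibitor of the EGF receptor, rose by 0.30 ± 0.0412 in Palmul-tang (adjusted p = 4.81e-06) and by 0.25 in Sibjeondaebo-tang (adjusted p = 3.07e-05). DUSP9, another ERK phosphatase, fell by 0.21 in Palmul-tang. The Sibjeondaebo-tang count was 3 without low replicate 3, with ERRFI1 at 0.25 (adjusted p = 0.000413), and ranged from 2 to 7 over the alternatives. The median of this list was 0.014 in Palmul-tang and 0.087 in Sibjeondaebo-tang, beside 0.353 and 0.326 for the 10 members. The list and the members were chosen with earlier results of these data known, so this contrast is a description.

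Of 15 secreted ligands 6 were tested. HBEGF, an EGF receptor ligand, rose by 0.50 from low to high Palmul-tang (adjusted p = 0.0415) and by 0.48 from low to high Sibjeondaebo-tang (adjusted p = 0.0224). GDF15, which belongs to the TGF-beta family and is no EGF or FGF ligand, rose by 0.65 and 0.47. Both genes were also above vehicle at the high doses, with AREG, another EGF receptor ligand, at 0.44 in Palmul-tang and 0.51 in Sibjeondaebo-tang. In all, 2 ligands rose with dose in Palmul-tang and 3 in Sibjeondaebo-tang, 2 without low replicate 3 (HBEGF 0.56, adjusted p = 0.0241, and GDF15 0.42, adjusted p = 1.01e-05), and none fell. These counts are fragile: the Palmul-tang count was 1 in 7 of 11 alternatives, and the Sibjeondaebo-tang count was 1 in 4 of 11.

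All 38 genes of the receptors and the RAS-ERK cascade were tested. Between doses, 2 rose and 2 fell in Palmul-tang, and 10 rose and 5 fell in Sibjeondaebo-tang, or 6 and 2 without low replicate 3. The count of rises in Palmul-tang was 1 in 9 of 11 alternatives. SOS1, which loads RAS with GTP, rose by 0.59 and 0.42, and FGFR3, an FGF receptor, fell by 0.21 and 0.34. Without low replicate 3 the Sibjeondaebo-tang values were 0.42 for SOS1 and -0.35 for FGFR3, both still called. Against vehicle, where treatment and labelled set cannot be told apart, 7 of the 38 were higher and 6 lower in Palmul-tang high (median 0.008). In Sibjeondaebo-tang high 10 were higher and 5 lower (median 0.053). Both are near the shares of all tested genes called, 31.8% and 36%. EGFR, among those higher, rose by 0.77 in Palmul-tang high and 0.85 in Sibjeondaebo-tang high. Of 15 tested stress kinases and their regulators, 0 rose and 1 fell with dose in Palmul-tang, and 1 rose and 2 fell in Sibjeondaebo-tang, or 0 and 1 without low replicate 3. The fall in Palmul-tang was lost in 7 of 11 alternatives. In Samul-tang, 1 gene rose with dose in each of the first 4 lists (MYC, ERRFI1, GDF15 and SOS1), 1 fell (ID1), and the first 3 rises were lost with any 1 library left out.

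**Figure D4:**
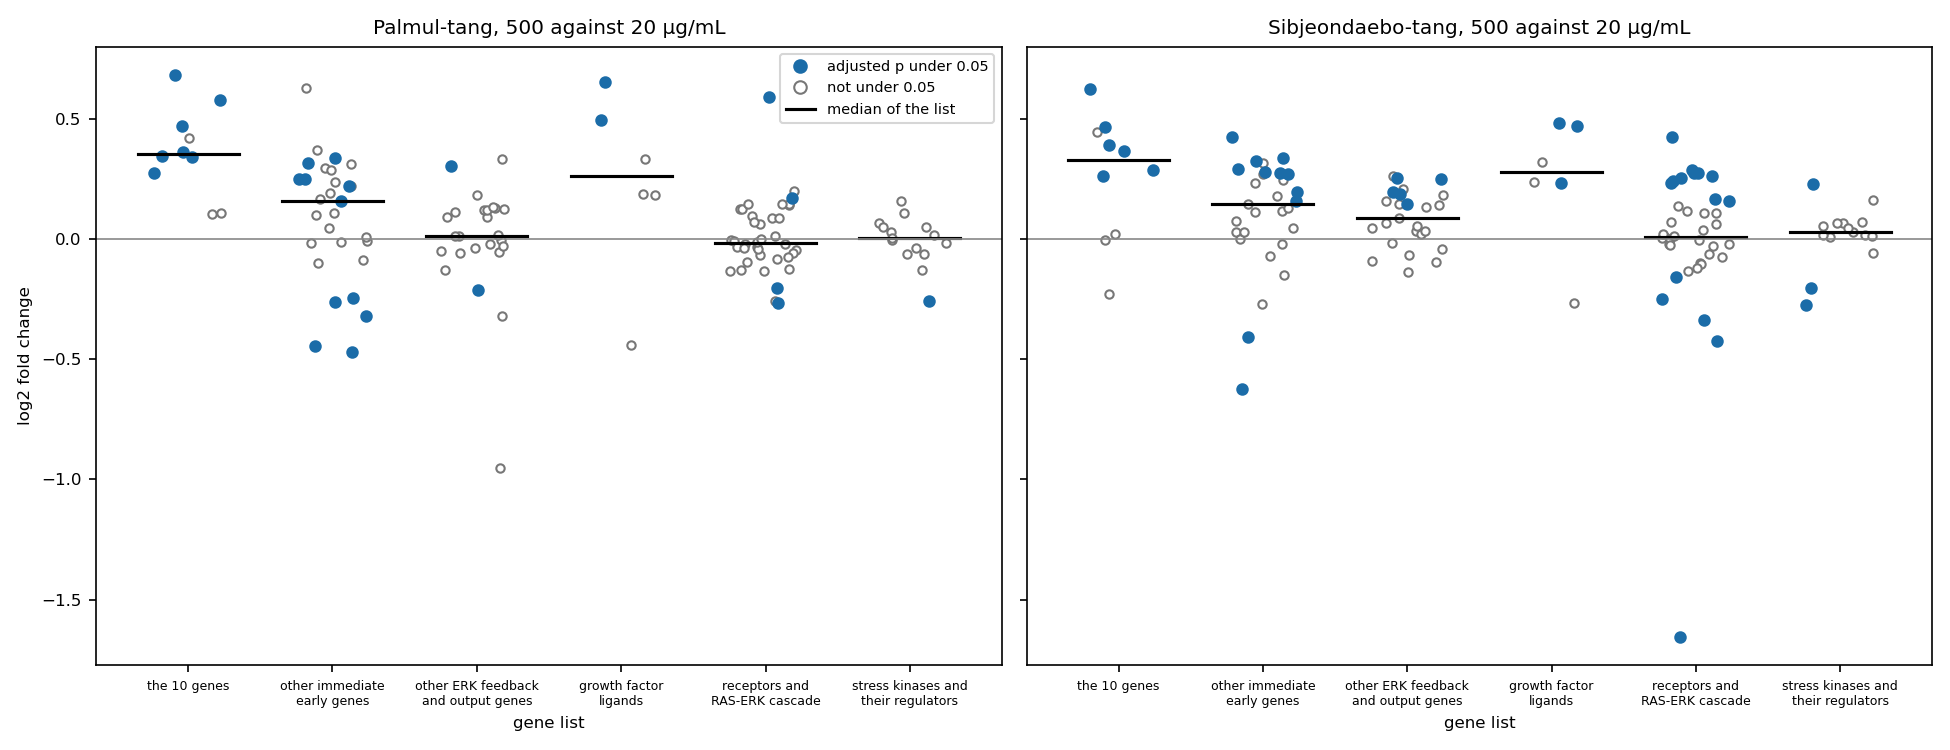
Log2 fold change from 20 to 500 µg/mL for each tested gene (points) of the 10 members and of 5 other lists of the pathway, in Palmul-tang (left) and Sibjeondaebo-tang (right), with filled points where the edgeR adjusted p was under 0.05 and a bar at the list median. The members' medians (0.353 and 0.326) sit above the medians of the other lists, whose called genes lie on both sides of 0 for the immediate early and cascade lists. Members and lists were chosen with earlier results of these data known.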

How the data were processed

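RNA-seq libraries of HepG2 cells were analysed from a gene table in which, per the submitters' processing notes, which list STAR 2.7.3a, RSEM 1.3.3, Trim Galore 0.6.5, FastQC 0.11.9 and GRCh38 with no settings, the authors made 1 value per gene and library. The gene annotation they used is not named in these notes. The deposited values are expected counts, not normalized, of which 8.56% were not whole, and they were rounded to whole numbers. The table has 240 columns of other samples, which were not used; wortmannin and further replicates are not analysed here. Symbols came from a gene table (56558 of 60675 rows matched, 41209 with a symbol), and positions, exon lengths and overlaps from GENCODE 29.

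All groups with replicates (27 libraries, 10 groups) were fitted in edgeR 4.0.16 (R 4.3.3) with filterByExpr (minimum count 10, minimum total 15), TMM factors, robust quasi-likelihood tests (two-sided) and Benjamini-Hochberg adjustment over 16083 genes, with 15 comparisons and 3 differences of dose effects. Sagunja-tang was given as a log2 ratio of CPM with a prior count of 2, with no test. Alternatives were DESeq2 1.42.0, median-ratio size factors, no low-count filter, a replicate block, the compared groups alone, each library left out, and a prior count of 0.5. The fit was also run on simulated counts drawn with 1 common spread for all genes. That setting is simpler than these data, and no call here rests on it. Replicates differed by 2.85 to 29.2 times the counting noise over 24 pairs, so none was a duplicate. The text names the 10 members, up to 4 called genes with the smallest adjusted p from each list and comparison at the high dose, and, of the 3 genes found most like each member, the first (all 3 for DUSP6). The TRIB1 value in Sibjeondaebo-tang high against low falls outside that rule and was chosen after it was seen. The members and lists were chosen with earlier results of these data known. Promoter sequences are from RefSeq.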

Additional observations from a re-analysis of the deposited data

How the results depend on the processing

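Of 36 called results for the 10 members, 25 were called under every alternative, and 41 of 392 alternative values of these 36 lost the call. Of 1678 alternative values of the 144 uncalled results, 17 gained a call. Among 2070 alternative values 98 changed sign, none of them called in either form. With DESeq2 the count of called members was 1 (2 in the edgeR fit) for Sibjeondaebo-tang low and for Samul-tang low against vehicle, and 2 (0 in the edgeR fit) for Samul-tang high against low. Median-ratio size factors gave 1 for Samul-tang low. With no low-count filter the counts were 2 for Samul-tang high against vehicle (1 in the edgeR fit) and 2 for Samul-tang high against low. With the compared groups alone they were 2 for Samul-tang high, 0 for Samul-tang medium (1 in the edgeR fit), 4 for Samul-tang low, and 1 for Samul-tang high against low. With each library left out, the counts ranged from 5 to 6 for Palmul-tang high against vehicle, 2 to 3 for Palmul-tang medium, 1 to 1 for Palmul-tang low, 4 to 5 for Sibjeondaebo-tang high, 2 to 2 for Sibjeondaebo-tang medium, 1 to 2 for Sibjeondaebo-tang low, 1 to 1 for Samul-tang high and medium, and 1 to 2 for Samul-tang low. They ranged from 5 to 6 for Palmul-tang and for Sibjeondaebo-tang high against low and 0 to 1 for Samul-tang high against low, and were 0 for the other comparisons. The Sagunja-tang counts were the same with a prior count of 0.5. The replicate numbers did not pair the samples: no comparison had every same-numbered correlation over 0.1. With a replicate block, 6 of the 7 members stayed called in Palmul-tang high against low (FOS, adjusted p = 0.0571), and 2 were called in Samul-tang high against vehicle and 2 in Samul-tang high against low. Counts over all genes moved by over 1.5 times in several settings: Samul-tang medium against vehicle fell from 3188 genes to 261 with the compared groups alone and 747 without replicate 2, Palmul-tang high against low from 1091 to 702 without Palmul-tang low replicate 2, and Sibjeondaebo-tang high against low from 3191 to 2042 without Sibjeondaebo-tang high replicate 3. The causes were not tested. Counts of 7 to 53 in a library limit DUSP4 and FOS.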
